A study of Mus musculus with 6 samples.

Results

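The genes described here encode the ligands and receptors of the tumour necrosis factor (TNF) superfamily, read from 6 Affymetrix arrays of mouse bone marrow. The rule that picks its members reads gene symbols and no measured value. Members are the probe sets with a single symbol in the platform annotation, where that symbol starts with Tnfsf or Tnfrsf or is Tnf, Lta, Ltb, Ltbr, Cd27, Cd40, Cd40lg, Cd70 or Fasl. This gave 58 probe sets of 36 genes, out of 45037 probe sets and 18193 named genes in all. Of the 58, 20 belonged to 13 ligand genes, 36 to 22 receptor genes and 2 to Tnfsf13os, an antisense RNA that the rule takes by its symbol and that is counted with neither. A further 3 probe sets were left out because they name several genes, so Tnfsf12 and Tnfsf13 were not analysed here. Nor were Tnfsf15, Tnfsf18 and Tnfrsf26.

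Marrow of 3 ASXL1-MT samples was compared with marrow of 3 mock samples. ASXL1 is a chromatin regulator that is often truncated in myelodysplastic syndrome. The ASXL1-MT samples came from mice that received ASXL1-MT in a transplant and had a disease like that syndrome, and the mock samples came from mock-transplanted control mice. The series text says that in both groups T cells (CD3e), B cells (B220) and red cell precursors (TER-119) had been removed with magnetic beads, while the source label states this for mock alone. Whether the removal differed between the groups was not tested. The labels used here do not give the strain, age or sex of the mice, the way the gene was delivered, the time after transplant or whether a sample was 1 mouse or a pool. The p-values therefore reflect only how far these samples lie apart, and that spread could be technical.

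TNF superfamily ligands are trimeric proteins, mostly held in the membrane of immune cells, and each binds one or a few receptors on a neighbouring cell. The receptors have no enzyme activity of their own. They recruit TRAF adaptors, which lead to NF-kB and MAP kinases, or, where they carry a death domain, FADD and caspase 8, which lead to cell death. In marrow the family is known for supporting B cells and plasma cells (BAFF and APRIL), for setting bone resorption (RANKL), and for inflammatory signals from TNF itself.

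All values are log2 signals from which the median of the 6 arrays was taken off, probe set by probe set. They show differences between arrays and no absolute level, and probe sets are not compared in level with each other. Changes are given as the mean of ASXL1-MT arrays less that of mock arrays. Where the groups do not overlap, this centring gives their facing arrays values of equal size and opposite sign. A fold holds only if the logs are to base 2, which the labels do not state. A probe set passed when its adjusted p was under 0.05 in limma's test across all 45037 probe sets (Benjamini-Hochberg). Where the values of the 3 highest arrays fell on the rounding steps of a log2 signal of 8 or more, a probe set is called bright. Lower signals can fall on these steps by coincidence, so the label is approximate. It was not checked against signal levels, and a probe set without it need not be dim. Bright were 18 of the 58 members and 38.2% of all probe sets. Within a group the SD had a median of 0.184 over bright probe sets and 0.806 over the others, so bright members are the more precise.

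The promoters of 4 genes with a bright probe set that passed below are shown: Tnfsf13b, Ltb and Tnfsf14, which were lower, and Tnfrsf13b, which was higher. Tnfrsf9, the remaining gene of this kind, has 2 separate promoters listed and probe sets that disagree, and is not shown. The sequences are RefSeq sequences of build GRCm38.p6, 5′ to 3′ on the gene's strand, from 250 bases before to 50 bases after the start site. Capitals mark a loose form of the NF-kB site on either strand, GGG and CC with 5 bases of any kind between them, with overlapping matches merged. The windows are chr17:35194257-35194556 (+) for Ltb, chr17:57194132-57194431 (-) for Tnfsf14, chr11:61126505-61126804 (+) for Tnfrsf13b and chr8:10006217-10006516 (+) for Tnfsf13b, the first of 2 overlapping promoters listed for that gene.
Ltb: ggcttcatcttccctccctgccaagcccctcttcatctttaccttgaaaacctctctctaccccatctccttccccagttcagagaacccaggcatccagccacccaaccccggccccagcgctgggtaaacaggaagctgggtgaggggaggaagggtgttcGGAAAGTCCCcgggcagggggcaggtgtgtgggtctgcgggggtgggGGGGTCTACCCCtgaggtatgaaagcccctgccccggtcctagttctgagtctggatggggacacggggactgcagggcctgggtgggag
Tnfsf14: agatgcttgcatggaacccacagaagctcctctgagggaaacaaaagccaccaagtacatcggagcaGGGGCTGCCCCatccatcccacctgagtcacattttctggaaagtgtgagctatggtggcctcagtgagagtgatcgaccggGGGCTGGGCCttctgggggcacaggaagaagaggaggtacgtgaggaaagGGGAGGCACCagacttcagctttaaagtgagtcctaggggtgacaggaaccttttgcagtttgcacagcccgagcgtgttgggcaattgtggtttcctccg
Tnfrsf13b: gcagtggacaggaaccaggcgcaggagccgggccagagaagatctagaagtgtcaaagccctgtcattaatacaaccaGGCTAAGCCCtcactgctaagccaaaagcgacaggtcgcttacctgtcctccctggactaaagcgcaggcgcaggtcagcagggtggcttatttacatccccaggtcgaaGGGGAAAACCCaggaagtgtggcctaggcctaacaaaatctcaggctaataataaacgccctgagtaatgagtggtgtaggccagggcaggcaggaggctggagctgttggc
Tnfsf13b: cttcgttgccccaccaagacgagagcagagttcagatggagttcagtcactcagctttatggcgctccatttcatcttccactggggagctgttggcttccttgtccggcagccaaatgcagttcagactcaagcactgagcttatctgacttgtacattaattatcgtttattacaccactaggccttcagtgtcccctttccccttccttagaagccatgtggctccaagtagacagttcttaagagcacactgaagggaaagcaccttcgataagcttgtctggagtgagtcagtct

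The Ltb window held 2 marked stretches, that of Tnfsf14 3, that of Tnfrsf13b 2 and that of Tnfsf13b 0. The motif is common. It was found in 50.8% of 32851 promoters of the same length, in 20 of the 31 promoters listed for 27 of the member genes (64.5%), and in 6 of the 10 promoters of genes with a probe set that passed. The letters GAGGAA, as in sites of the myeloid factor PU.1, were in 11 of the 31 (35.5%) against 28.3% of all promoters. The AP-1 letters TGANTCA were in 5 of the 31 (16.1%) against 7.81% of all. Both were searched on both strands. Genes that were lower and genes that were higher both had windows with and without the NF-kB letters. A match is a description of letters and not a site.

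In ASXL1-MT marrow the ligands BAFF (Tnfsf13b), LIGHT (Tnfsf14) and lymphotoxin beta (Ltb) were lower, and the ligands CD30L (Tnfsf8) and RANKL (Tnfsf11) were higher. Among receptors, the TWEAK receptor Fn14 (Tnfrsf12a) was lower, and TACI (Tnfrsf13b) and 4-1BB (Tnfrsf9) were higher. For 4-1BB this held by 1460469_at alone, and its other probe sets had the opposite sign. In all, 8 of 58 member probe sets passed, or 13.8% where 8.1% of all probe sets passed. The 4 higher and 4 lower members stand against 4.73% and 3.37% of all probe sets. The ligands gave 5 of 20 (25%) and the receptors 3 of 36 (8.33%). Bright members passed in 5 of 18 cases against 13.8% of all bright probe sets, and the other members in 3 of 40 against 4.54% of their kind. The share among receptors was thus close to that of all probe sets.

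By their median size, differences were larger for ligands than for receptors, and they ran in both directions. The largest fall was that of a receptor, Tnfrsf12a (-3.70). The median size of change was 1.11 for ligand probe sets and 0.30 for receptor probe sets, against 0.53 for all probe sets. At an unadjusted p under 0.05 in limma's test stood 12 of 20 ligand and 7 of 36 receptor probe sets, against 26.3% of all. The groups did not overlap in 13 of 20 ligand probe sets (65%), 6 higher and 7 lower, and in 8 of 36 receptor probe sets (22.2%), 4 higher and 4 lower, where 35.4% of all probe sets had no overlap. Probe sets of the same gene are counted apart here, and Tnfsf13b, Tnfsf14, Tnfsf11 and Tnfsf10 each gave more than 1 of the 13. The signed median was 0.16 for ligands and -0.17 for receptors, against 0.11 for all probe sets. The ligand median turned to -0.10 without ASXL1-MT replicate 1, to -0.25 without mock replicate 1 and to -0.89 over the 7 bright ligand probe sets, so it has no settled sign. No test of ligands against receptors was made.

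**Figure D1:**
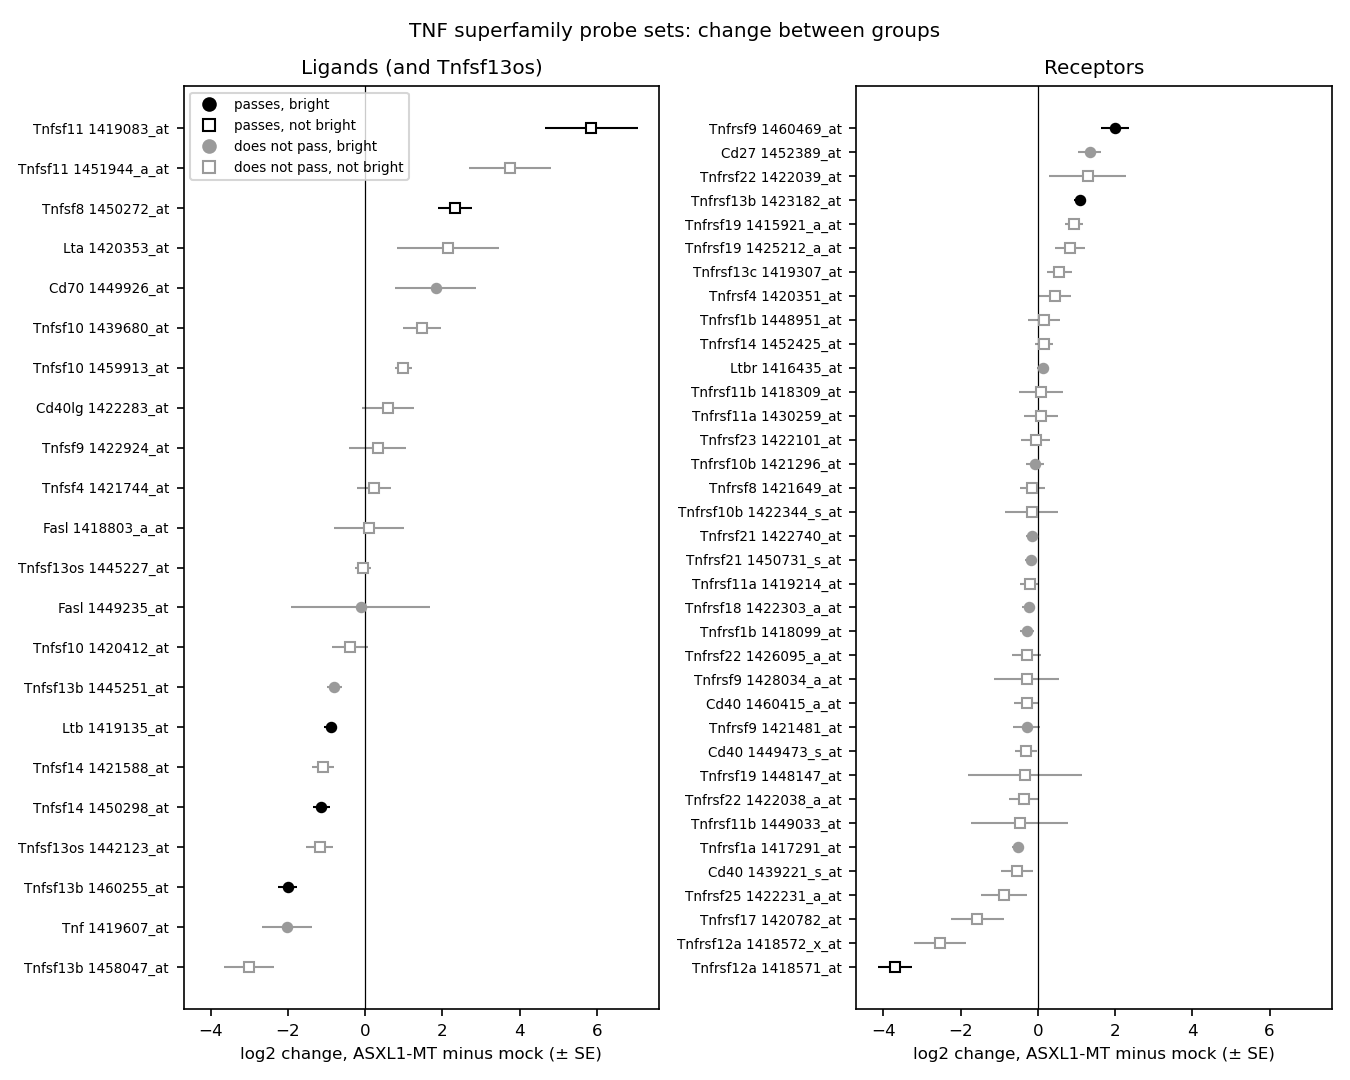
Log2 change (ASXL1-MT minus mock, 3 arrays a group, bars ± SE) of every member probe set, ligands and Tnfsf13os on the left and receptors on the right. Black symbols passed at an adjusted p under 0.05 and grey ones did not, and filled circles are bright. The ligands range from -3.0 to 5.86 with a median size of 1.11, and the receptors from -3.70 to 1.99 with a median size of 0.30.

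BAFF, which keeps B cells and plasma cells alive and is made by neutrophils, monocytes and other myeloid cells, was lower in ASXL1-MT by the 1 of its 3 probe sets that passed, and the others had the same sign. The bright probe set 1460255_at read -1.58, -0.75 and -1.22 in ASXL1-MT replicates 1 to 3 and 0.77, 0.75 and 0.93 in mock replicates 1 to 3. The groups did not overlap, and the fall was 4-fold (change -2.0 on the log2 scale, SE 0.25, with adjusted p = 0.0206 by limma). A second probe set, 1458047_at, read -0.80, -1.74 and -3.25 against 1.35, 1.07 and 0.80, a change of -3.0 that just missed the threshold (adjusted p = 0.0539 by limma). The third, 1445251_at, read -0.39, -0.23 and -0.33 against 0.78, 0.45 and 0.23, with a change of -0.80 and an adjusted p = 0.0689 by limma. All 3 had every ASXL1-MT array below every mock array. Averaged over its probe sets, Tnfsf13b changed by -1.93 (adjusted p = 0.0149 by limma on gene means).

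The BAFF receptors did not move as a group. TACI, an inhibitory receptor of B cells and plasma cells that binds BAFF and APRIL, read 0.43, 0.45 and 0.55 in the ASXL1-MT arrays and -0.43, -0.67 and -0.71 in the mock arrays. It was 2.12-fold higher with little spread in either group (change 1.08 on the log2 scale, SE 0.15, with adjusted p = 0.0247 by limma). BAFF receptor itself (Tnfrsf13c), through which BAFF sustains mature B cells, read 0.87, -0.16 and 0.57 against -0.15, 0.15 and -0.39. Its values overlapped between groups and it did not pass (change 0.56, adjusted p = 0.351 by limma). BCMA (Tnfrsf17), the receptor of plasma cells, read -0.02, -2.30 and -0.48 against 1.22, 0.68 and 0.02, a change of -1.57 that did not pass (adjusted p = 0.227 by limma). TACI and BCMA thus had opposite signs, and only the former passed. Neither Tnfrsf13c nor Tnfrsf17 was bright.

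Markers of the cells that make or bind BAFF were read on the same arrays. In bulk samples fewer cells of a type and less RNA per cell cannot be told apart. Of 10 probe sets of mature neutrophils 8 were lower and 0 higher, among them Il1r2 with a change of -4.17 (adjusted p = 0.00609 by limma). Those of S100a8 (-0.18) and S100a9 (0.0003) did not pass. The mean of the 10 lay between -1.65 and -1.12 in ASXL1-MT and between 1.00 and 1.02 in mock. Of 17 monocyte and macrophage probe sets 3 were lower, all of Vcam1, and 0 higher, with means between -0.42 and -0.26 in ASXL1-MT and between -0.05 and 0.30 in mock. In this list 12 of the 17 changes were above 0 and the median was 0.23, so the median and the means differ in direction. B cell markers gave 2 higher (Fcrla and Cd79b) and 0 lower of 19, with means between -0.16 and -0.0016 in ASXL1-MT and between -0.70 and 0.37 in mock. Their defining genes Pax5, Ms4a1 and Cd79a had no probe set that passed. Of 20 probe sets of plasmacytoid dendritic cells 11 were higher, led by Ly6d and Irf8, and 0 lower, and their mean ran from 0.54 to 1.24 in ASXL1-MT and from -1.23 to -0.81 in mock. These calls came from 5 of the 8 genes measured, several of them from Tcf4. Siglech, Pacsin1 and Cox6a2 had no probe set that passed. Plasma cell markers gave 0 calls of 14 in limma's test, with 4 at an unadjusted p under 0.05, where 8.1% and 26.3% of all probe sets did so. Their means ran from -0.20 to -0.03 in ASXL1-MT and from -0.13 to 0.20 in mock. The part of these cells, or of a difference in bead removal between the groups, in the BAFF and TACI results was not tested.

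**Figure D2:**
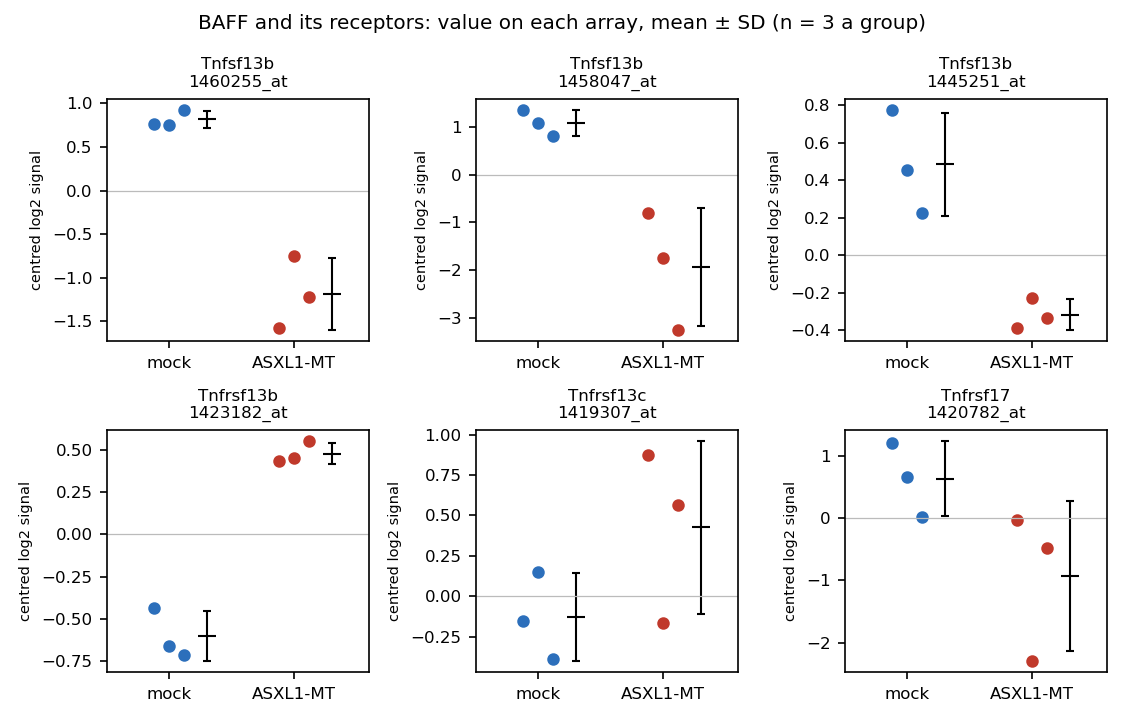
Centred log2 signal of BAFF (Tnfsf13b, 3 probe sets) and its receptors TACI (Tnfrsf13b), BAFF receptor (Tnfrsf13c) and BCMA (Tnfrsf17) on each array, with mean ± SD at the side (n = 3 a group). Each BAFF probe set has all ASXL1-MT arrays below all mock arrays, TACI the reverse, and Tnfrsf13c overlaps.

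Among ligands of the lymphotoxin receptor, Ltb and LIGHT were lower and Lta did not pass. Ltb, which builds the membrane lymphotoxin that organises lymphoid tissue, read -0.70, -0.30 and -0.58 in the ASXL1-MT arrays and 0.37, 0.30 and 0.42 in the mock arrays, a 1.85-fold fall (change -0.89, SE 0.17, adjusted p = 0.0414 by limma). LIGHT, which shares the lymphotoxin receptor and costimulates T cells, read -0.72, -0.31 and -0.80 against 0.74, 0.31 and 0.52 by probe set 1450298_at, a 2.19-fold fall (change -1.13, SE 0.21, adjusted p = 0.0408 by limma). Its other probe set, 1421588_at, read -0.96, -0.14 and -0.70 against 0.78, 0.56 and 0.14 and did not pass (change -1.09, adjusted p = 0.0877 by limma). In both genes ASXL1-MT replicate 2 was the array of that group nearest to mock. Lta, which makes soluble lymphotoxin and joins Ltb in the membrane form, was spread widely, at 1.34, -1.01 and 1.65 against 1.01, -2.51 and -2.97, with groups that overlapped (adjusted p = 0.369 by limma). Of the receptors of these ligands, Ltbr differed by 0.13 (SE 0.15) and the LIGHT receptor HVEM (Tnfrsf14) by 0.15 (SE 0.24), and neither passed.

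RANKL and CD30L were the ligands that were higher. RANKL drives the formation of osteoclasts and is made in marrow by stromal cells, osteocytes and T cells. By 1419083_at it read 3.88, 1.56 and 1.57 in the ASXL1-MT arrays and -5.48, -3.53 and -1.56 in the mock arrays, a change of 5.86 with an SE of 1.20 (adjusted p = 0.0483 by limma). The second probe set, 1451944_a_at, read 3.66, 1.05 and 0.66 against -3.31, -0.66 and -1.89, a change of 3.74 that did not pass (adjusted p = 0.0967 by limma). Both put ASXL1-MT replicate 1 highest and mock replicate 1 lowest, and neither was bright, so the size of the difference is uncertain. The call of 1419083_at was lost after cyclic loess (adjusted p = 0.051), with equal array medians (adjusted p = 0.0516) and with a robust variance model (adjusted p = 0.0572), all by limma.

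None of the 4 probe sets of its receptor and its decoy passed. RANK (Tnfrsf11a), the receptor on osteoclast precursors, differed by -0.21 (SE 0.25) and 0.08 (SE 0.43) in its probe sets. Osteoprotegerin (Tnfrsf11b), the soluble decoy of RANKL, differed by 0.09 (SE 0.57) and -0.47 (SE 1.27). In 1449033_at of Tnfrsf11b the same lowest value, -0.75, stood on 3 arrays of both groups, as a floor on dim signals gives.

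CD30L, a ligand of activated lymphocytes and myeloid cells, read 0.70, 1.12 and 0.91 in the ASXL1-MT arrays and -1.28, -2.27 and -0.70 in the mock arrays. It was 5.01-fold higher (change 2.33, SE 0.43, adjusted p = 0.0401 by limma) but not bright. Its receptor CD30 (Tnfrsf8) differed by -0.14 (SE 0.33) and did not pass. Of 21 T cell probe sets 7 were higher and 0 lower, led by Cd8a and Cd8b1, with means between 0.18 and 0.86 in ASXL1-MT and between -1.07 and -0.21 in mock. The defining genes Cd3e, Cd3d and Cd3g had no probe set that passed, with changes of 0.78, -2.82 and -1.38. Of 18 probe sets of stroma, osteoblasts and endothelium 2 were higher (Col3a1 and Cxcl12) and 0 lower, and their means ran from -0.13 to 0.41 and from -0.98 to -0.51. In this list 10 changes were above 0 and 8 below. Among the latter were 1423669_at of Col1a1 (-2.35), 1417148_at of Pdgfrb (-1.55) and the other probe set of Col3a1 (-0.57), which did not pass. The part of T cells and stroma in the RANKL and CD30L results was not tested. Nor was the part of a difference in bead removal between the groups in the T cell markers.

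Costimulatory receptors of lymphocytes were mostly without a call. 4-1BB, which sustains CD8 T cells and is also found on myeloid cells, passed by 1460469_at, with 1.5, 0.73 and 0.69 in the ASXL1-MT arrays and -0.69, -1.58 and -0.79 in the mock arrays (3.98-fold, change 1.99, SE 0.36, adjusted p = 0.0372 by limma). Its other probe sets, 1421481_at and 1428034_a_at, both changed by -0.29 and did not pass (adjusted p = 0.654 and 0.865 by limma), and the former is also bright. The probe sets of Tnfrsf9 therefore disagree, and on gene means the change was 0.47 with an adjusted p = 0.287 by limma. CD27, a receptor of T cells, NK cells and early lymphoid progenitors, read 0.42, 0.72 and 0.72 against -1.31, -0.42 and -0.44, a 2.54-fold difference that just missed the threshold among probe sets (change 1.34, SE 0.30, adjusted p = 0.0577 by limma). It passed on gene means (adjusted p = 0.0459 by limma). Its ligand CD70 read 0.19, 0.93 and 0.13 against -0.32, -0.13 and -3.77, with mock replicate 3 far below the other arrays (change 1.82, SE 1.06).

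The remaining pairs of this kind did not pass. OX40 ligand (Tnfsf4) differed by 0.23 and OX40 (Tnfrsf4) by 0.45, the 4-1BB ligand (Tnfsf9) by 0.33, GITR (Tnfrsf18) by -0.24 and CD40 ligand (Cd40lg) by 0.59. CD40, which licenses antigen-presenting cells, was measured by 3 probe sets at -0.54, -0.32 and -0.29, and DR3 (Tnfrsf25) differed by -0.88. Across the T cell costimulatory pairs 3 of 19 probe sets passed (15.8%, where 8.1% of all probe sets did), 2 higher and 1 lower, against 4.73% and 3.37% of all. Conventional dendritic cell and MHC class II markers, whose cells carry CD40, were higher in 12 of 20 probe sets (means from 0.80 to 0.99 in ASXL1-MT and from -1.90 to -0.90 in mock). The 12 calls came from 7 of the 10 genes measured, most of them from the MHC class II genes H2-Aa and H2-Ab1. Itgax, Xcr1 and Cd209a, with changes of 0.10, 2.27 and 1.59, did not pass. CD40 itself had overlapping groups in all 3 of its own probe sets.

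**Figure D3:**
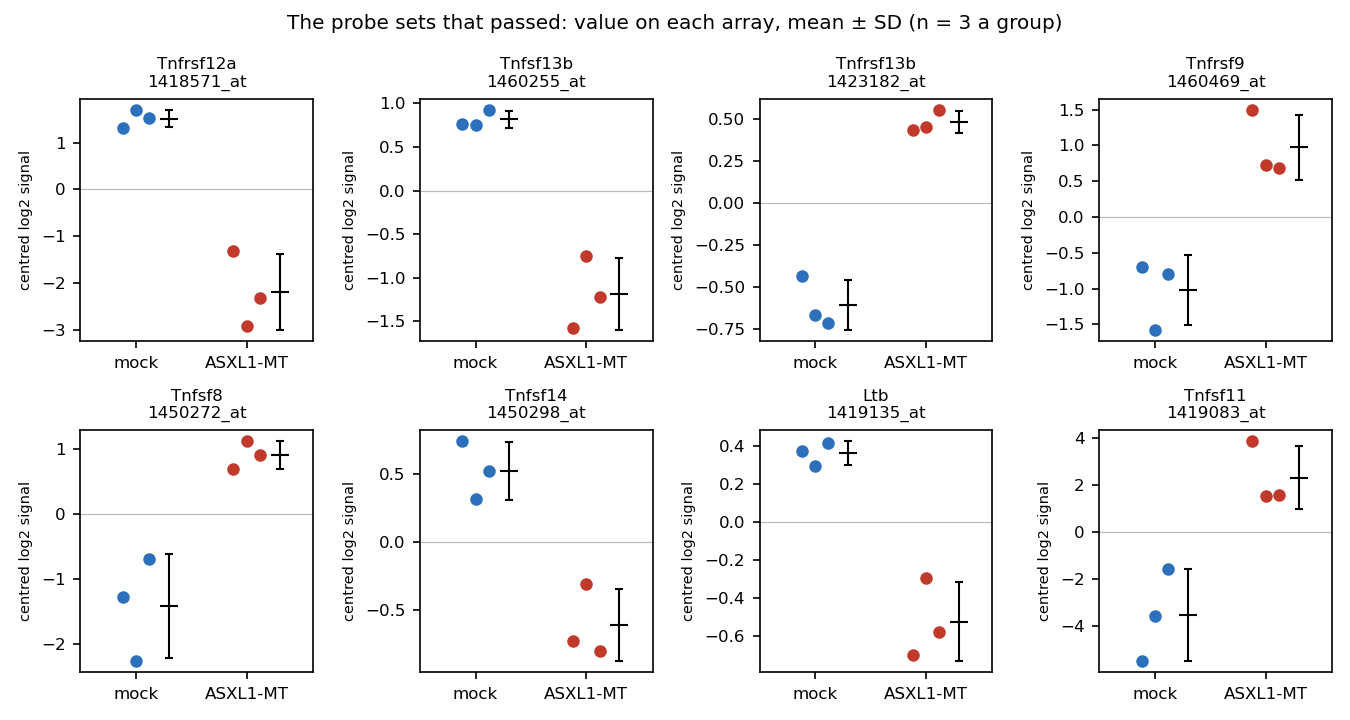
Centred log2 signal on each array of the 8 member probe sets that passed, with mean ± SD at the side (n = 3 a group). In each panel the groups do not overlap, and the axes differ between panels.

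TNF and the death receptors and ligands whose symbols fit the rule gave 0 calls among 14 probe sets in limma's test, and 4 at an unadjusted p under 0.05. Fas, a death receptor whose symbol does not, passed as lower and is given below. Of all probe sets, 8.1% were called and 26.3% had such an unadjusted p. Tnf, named here although it fell outside the rule for array values, read -0.10, -1.89 and -2.08 in the ASXL1-MT arrays and 0.56, 1.34 and 0.10 in the mock arrays. Its change of -2.02 had an SE of 0.65 and did not pass (adjusted p = 0.125 by limma), with ASXL1-MT replicate 1 far closer to mock than the rest of its group. The main TNF receptor TNFR1 (Tnfrsf1a), which carries a death domain, was bright and tight at -0.17, -0.28 and -0.30 against 0.17, 0.45 and 0.22, a change of -0.53 (SE 0.15, adjusted p = 0.103 by limma). TNFR2 (Tnfrsf1b), which lacks one, differed by -0.28 (SE 0.18) by its bright probe set and 0.16 by the other.

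TRAIL (Tnfsf10), a death ligand, had probe sets of both signs. By 1459913_at it read 0.45, 0.22 and 0.71 against -0.61, -0.22 and -0.76 (change 0.99, adjusted p = 0.0612 by limma), by 1439680_at it changed by 1.47 and by 1420412_at by -0.39, and none passed. The TRAIL receptor (Tnfrsf10b) differed by -0.08 (SE 0.23) by its bright probe set. Fas ligand (Fasl) differed by 0.10 and -0.11, where mock replicate 1 read -2.25 and -4.09 and the other mock arrays read 0.67 to 2.15. NK cell markers, whose cells carry Fas ligand, also had mock replicate 1 lowest, at a mean of -2.53 against -0.04 and 0.20 in the other mock arrays and -0.02 to 0.36 in ASXL1-MT. DR6 (Tnfrsf21), an orphan death receptor, differed by -0.19 (SE 0.15) and -0.16 (SE 0.15). The decoy receptors Tnfrsf22 and Tnfrsf23, which bind TRAIL without a death signal, gave 0 calls and 0 at an unadjusted p under 0.05, where 8.1% and 26.3% of all probe sets did. Their changes were 1.29, -0.35 and -0.29 for Tnfrsf22 and -0.05 for Tnfrsf23.

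Fn14 had the lowest adjusted p of all members. It is the receptor of TWEAK, is induced in injured tissue, and is common on stromal and epithelial cells. By 1418571_at it read -1.32, -2.93 and -2.32 in the ASXL1-MT arrays and 1.32, 1.69 and 1.53 in the mock arrays, a 13-fold fall (change -3.70, SE 0.44, adjusted p = 0.0192 by limma). By 1418572_x_at it read -0.49, -3.06 and -2.04 against 0.49, 0.93 and 0.59 and did not pass (change -2.54, adjusted p = 0.0836 by limma). In both, ASXL1-MT replicate 1 was the array of its group closest to mock, and without it the changes were -4.14 (adjusted p = 0.0375) and -3.22 (adjusted p = 0.0452) by limma. Neither was bright. TROY (Tnfrsf19), an orphan receptor of stem cells in other tissues, read 0.25, 0.54 and 0.28 against -0.57, -0.91 and -0.25 by 1415921_a_at and did not pass (change 0.93, adjusted p = 0.0687 by limma), with 0.83 and -0.33 by its other probe sets.

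Tnfsf13os is named as the opposite strand RNA of the APRIL gene Tnfsf13. It read -1.26, -0.64 and -0.16 in the ASXL1-MT arrays and 0.85, 0.16 and 0.45 in the mock arrays by 1442123_at (change -1.17, adjusted p = 0.110 by limma), and changed by -0.06 by 1445227_at. Neither passed.

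Across the family, 16 genes had several probe sets. In 8 of them all probe sets had the same sign, and in 8 they were mixed. The former were Tnfsf11, above 0, and Tnfsf13b, Tnfsf14, Tnfrsf12a, Tnfrsf21, Tnfrsf10b, Cd40 and Tnfsf13os, below 0. On gene means 8 of 36 genes passed, against 11.4% of all genes: Tnfsf13b, Tnfrsf13b, Tnfrsf12a, Ltb, Tnfsf8, Tnfsf14, Tnfsf11 and Cd27. Compared with the probe set calls, Cd27 entered and Tnfrsf9 left.

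Nearly all calls needed all 6 arrays. With an array left out, 1418571_at of Tnfrsf12a and 1460255_at of Tnfsf13b passed in 1 of 6 fits each, both without ASXL1-MT replicate 1, and the other 6 probe sets passed in 0. Their signs were the same in every such fit, with changes from -4.14 to -3.33 for Tnfrsf12a, from -2.22 to -1.81 for Tnfsf13b and from 1.03 to 1.17 for Tnfrsf13b. Of all probe sets, 1142 passed without ASXL1-MT replicate 1 and 66 without ASXL1-MT replicate 3, against 3646 with all arrays.

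**Figure D4:**
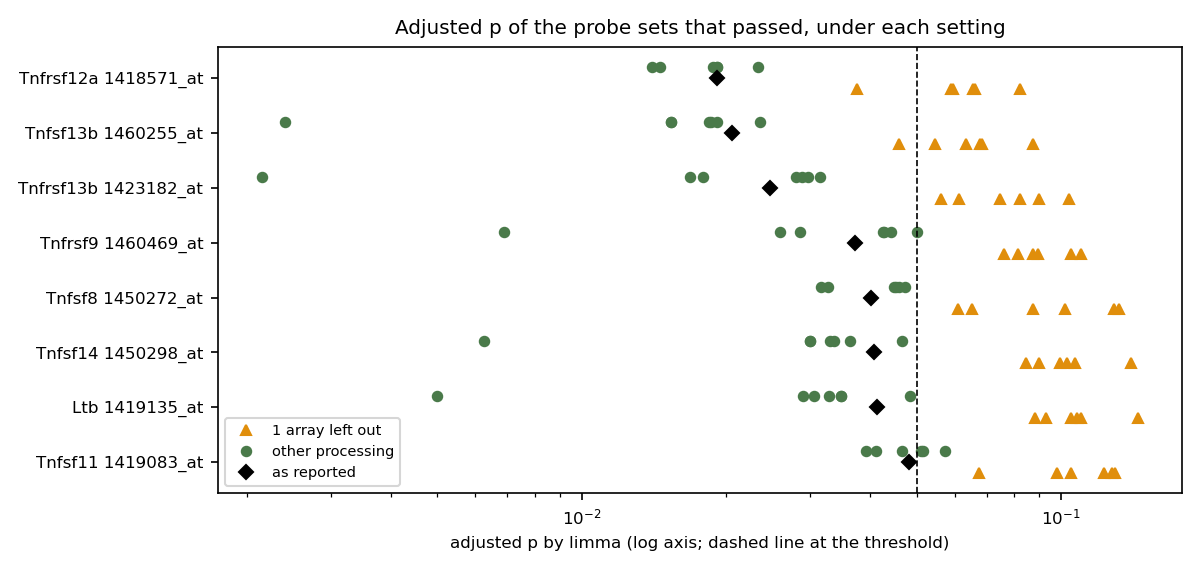
Adjusted p by limma (log axis) of the 8 member probe sets that passed, as reported (diamonds), with 1 array left out (triangles) and under other processing (circles). The dashed line is the threshold of 0.05. Most circles lie below it, and triangles lie below it only for Tnfrsf12a and Tnfsf13b, once each.

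Relatives of the family whose symbols fall outside the rule gave 2 calls, both lower, among 21 probe sets of 9 genes (9.52%, close to the 8.1% of all probe sets). Fas, which triggers apoptosis when bound by Fas ligand, read -0.75, -0.81 and -0.51 in the ASXL1-MT arrays and 0.80, 0.59 and 0.51 in the mock arrays, a 2.5-fold fall (change -1.32, SE 0.17, adjusted p = 0.0216 by limma). Rell1, a homologue of the receptor RELT, was lower by 1.89-fold by 1452359_at (adjusted p = 0.0353 by limma). The list also held Relt, Ngfr, Eda, Edar, Eda2r, Edaradd and Rell2, which did not pass.

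Downstream of the receptors, 6 of 106 probe sets of adaptors, kinases and death machinery passed (5.66%, where 8.1% of all probe sets did), 3 higher and 3 lower, and 43 of 49 listed genes were measured. Cflar encodes c-FLIP, which blocks caspase 8 at death receptors. It was lower by 1453482_at, at -0.70, -1.42 and -1.02 against 1.39, 0.70 and 0.96 (change -2.06, SE 0.28, adjusted p = 0.0237 by limma), and by 1449317_at (change -1.48). Its other 3 probe sets changed by -0.15, -0.24 and 0.01 and did not pass. Traf6, an adaptor shared by CD40, RANK and the interleukin 1 receptor, was lower by 1421376_at (change -1.69, adjusted p = 0.0428 by limma), and of its other 4 probe sets, none of which passed, 1 had the opposite sign. On gene means its call was lost (change -0.54, adjusted p = 0.25 by limma).

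Higher in the same list were Nsmaf, Traf3ip2 and Traf5. Nsmaf, which binds TNFR1 and links it to sphingomyelinase, read 0.59, 0.68 and 0.74 against -0.69, -0.59 and -0.86 (change 1.39, SE 0.15, adjusted p = 0.0174 by limma). Traf3ip2, an adaptor of interleukin 17 and of CD40 and BAFF receptor signalling, changed by 1.27 (adjusted p = 0.0261 by limma). Traf5, an adaptor of CD27, CD30 and OX40, changed by 1.10 (adjusted p = 0.0458 by limma), while its second probe set changed by -0.47 and did not pass. The call of Traf5 was lost on gene means (adjusted p = 0.355), after quantile normalization (adjusted p = 0.0591), cyclic loess (adjusted p = 0.0595), with equal array medians (adjusted p = 0.0543) and with a robust variance model (adjusted p = 0.0519), all by limma. Casp8, the caspase recruited by death receptors and chosen here after its value was seen, just missed the threshold at 0.84 (adjusted p = 0.0545 by limma).

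Among genes that TNF is known to induce, Vcam1 and Csf1 were lower in ASXL1-MT marrow, and most others had a change below 0 without passing. Of 47 probe sets of 23 such genes, 40 had a change below 0 and the median was -0.89, against 0.11 for all probe sets. Of the 47, 4 passed as lower (8.51%, against 3.37% of all probe sets lower), 3 of Vcam1 and 1 of Csf1, and 0 as higher. The list was chosen with earlier results of these data known, so its figures describe it and are no independent test. Vcam1, an adhesion molecule of endothelium and marrow macrophages, fell by all 3 of its probe sets, 45.4-fold by 1451314_a_at (change -5.50, SE 0.43, adjusted p = 0.012 by limma), 19.8-fold by 1448162_at and 8.97-fold by 1415989_at. Csf1, the growth factor of macrophages, fell 3.53-fold by 1460220_a_at (adjusted p = 0.0211 by limma). Its other 3 probe sets did not pass and had both signs, and on gene means its call was lost (change -0.91, adjusted p = 0.096 by limma). ASXL1-MT arrays lay wholly below mock arrays in 21 probe sets and wholly above them in 2, where 13.7% and 21.7% of all probe sets did so in those directions.

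ASXL1-MT replicate 1 stood apart in this list. Its mean over the 47 probe sets was -0.07, against -1.08 and -0.95 in ASXL1-MT replicates 2 and 3 and 0.10 to 0.72 in mock, and among mock arrays replicate 1 was the lowest. Tnf itself also had ASXL1-MT replicate 1 highest in its group. The part of that array's state in the response list was not tested. Further response genes of large change did not pass and were chosen after their values were seen: Cxcl2, a neutrophil chemokine, read -0.88, -4.47 and -2.43 against 0.88, 3.12 and 3.46 (adjusted p = 0.0595 by limma), and Il6 read -0.50, -2.75 and -2.0 against 0.50, 2.12 and 2.22 (adjusted p = 0.0598 by limma). Without ASXL1-MT replicate 1 the median of the list was -1.14, with 41 of 47 below 0 and 6 lower, and with 0 lower without ASXL1-MT replicate 3 or mock replicate 2. Fitted on bright probe sets alone, 18 of 35 were lower and 0 higher, where 2713 of 17208 bright probe sets were lower.

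**Figure D5:**
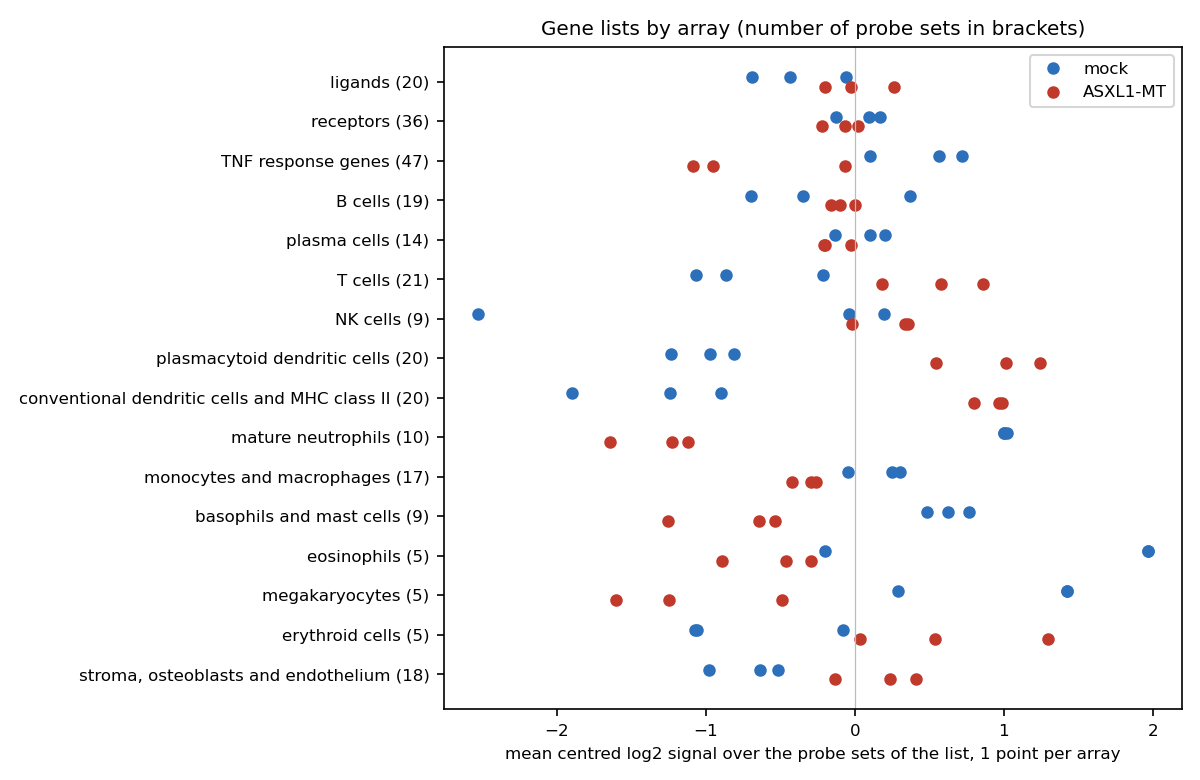
Mean centred log2 signal of each gene list on each array (mock blue, ASXL1-MT red, 1 point per array, number of probe sets in brackets). On all ASXL1-MT arrays the mean of mature neutrophil markers is lower. The means of plasmacytoid dendritic cell markers and of conventional dendritic cell and MHC class II markers are higher. The TNF ligand means overlap between groups, and ASXL1-MT replicate 1 is the red point nearest 0 among the TNF response genes.

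The other marker lists were read against the label of myeloid marrow cells. Mature neutrophil markers were bright in 9 of 10 probe sets, monocyte and macrophage markers in 15 of 17, B cell markers in 5 of 19 and T cell markers in 2 of 21. Basophil and mast cell markers were lower in 3 of 9 probe sets, all of Hdc and Fcer1a, and 0 were higher. Their means ran from -1.25 to -0.53 in ASXL1-MT and from 0.49 to 0.76 in mock, with Fcer1a, which was not bright, at a change of -7.17. The median change was -0.34, with 3 of the 9 above 0. Cpa3, Mcpt8, Ms4a2 and Kit had no probe set that passed. Megakaryocyte markers were lower in 3 of 5 and eosinophil markers in 1 of 5, with 0 higher in either. Means ran from -1.60 to -0.49 in ASXL1-MT and from 0.29 to 1.43 in mock for megakaryocytes, and from -0.89 to -0.29 and from -0.20 to 1.97 for eosinophils. Erythroid markers gave 0 calls of 5 in limma's test and 2 at an unadjusted p under 0.05, with means from 0.04 to 1.29 in ASXL1-MT and from -1.07 to -0.08 in mock. All 5 erythroid changes were above 0, and the part of red cell precursor removal in them was not tested. NK cell markers gave 1 higher of 9, which was Klrk1. Because values are centred, a marker that is absent cannot be told from one that is present at the same level on all arrays.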

How the data were processed

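Gene expression was measured on 6 Affymetrix mouse arrays, 3 ASXL1-MT and 3 mock, grouped and numbered by their titles. Signals were made with MAS5, per the submitters' processing notes. The deposited table holds logs, read here as log2 values, less the median of the probe set over the 6 arrays. The log scale and the centring were read from the values (row medians within 5e-07 of 0) and are not stated. Depth has no meaning here, and the number of arrays limits the precision. Array medians ran from -0.053 to 0.050, with mock below ASXL1-MT.

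Probe sets were named from the platform annotation, where 932 had several symbols and 9160 none here. All 36 member genes matched the RefSeq table of GRCm38.p6 by gene ID, with the same symbol. All 45037 probe sets were fitted with limma 3.58.1 (lmFit, eBayes; R 4.3.3), group as the only term, two-sided, Benjamini-Hochberg adjusted. The procedure was tested on simulated data. Members, gene lists and markers were chosen with earlier results of these data known. Array values are given for members that passed and for the 10 others of smallest p, and other members are named by their change. Array values of Tnf, Tnfrsf13c, Tnfrsf17, Lta, Cd70 and Fasl were added after they were seen. Of the downstream lists, up to 8 genes that passed are named, and up to 2 per marker list, apart from genes named as defining markers, as the source of several calls or as not passing. Alternatives were 3 normalizations, 2 variance models, 2 choices of probe sets, gene means, a replicate block and each array left out.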

Additional observations from a re-analysis of the deposited data

How the results depend on the processing

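None of the probe sets that passed among members and downstream genes, nor the 10 members of next smallest p, turned its sign under any alternative that was run, and no alternative was added later. The cause of the moves below was not tested, except that leaving out an array or adding a block leaves fewer degrees of freedom. As reported, the ligand probe sets gave 2 higher and 3 lower, the receptors 2 and 1, the pathway list 3 and 3 and the response genes 0 and 4. With the replicate number as a block, each of these counts was 0, as was the count over all probe sets. Over all probe sets same-numbered arrays did not deviate together (r = -0.0088, -0.012 and -0.0090 for replicates 1 to 3). Such a correlation cannot show a shared day or batch that touched only some probe sets. The labels do not say what the numbers mean. After quantile normalization receptors gave 1 higher, pathway genes 5 lower and response genes 7 lower. After cyclic loess ligands gave 1 higher with a median of 0.033, pathway genes 5 lower and response genes 7 lower. With equal array medians, and with a robust variance model, ligands gave 1 higher. With a variance trend ligands gave 5 lower, pathway genes 5 higher and 5 lower and response genes 7 lower, where 10.6% of all probe sets passed. That trend was fitted on the mean of the centred values, which is no measure of intensity. With only probe sets of 1 symbol, pathway genes gave 6 higher and 6 lower and response genes 11 lower, where 12.4% of these probe sets passed. Among bright probe sets alone ligands gave 0 higher and 5 lower of 7, with a median of -0.89. In that fit pathway genes gave 17 higher and 7 lower of 65, and response genes 18 lower of 35. It called 39.4% of all 17208 bright probe sets, 4072 higher and 2713 lower. On gene means the ligand median was 0.33. Settings that set the arrays level also moved the split of all calls, from 2130 higher and 1516 lower as deposited to 1734 and 1740 with equal medians, and the median of all probe sets from 0.11 to 0.02. Without each array in turn, ligands gave 0 higher and 0 to 1 lower, receptors 0 higher and 0 to 3 lower, pathway genes 0 to 1 higher and 0 to 1 lower, and response genes 0 to 6 lower, and the ligand median ran from -0.25 to 0.58. The lone pair of arrays left in a group was assumed to vary like the other group. Tnfrsf9 lost its call after quantile normalization (adjusted p = 0.0502 by limma). Members that were not bright had no value among bright probe sets alone.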
